A study of Homo sapiens with 36 samples.

Results

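The 207 genes described here carry a symbol made of ZNF and a number, and each had a probe that was detected on all 16 untreated arrays of a copper time course in 2 human cell lines. Most are C2H2 zinc finger genes. A probe counted as detected where the authors' detection p-value was below 0.01, and where a gene had several such probes, the one with the highest mean signal stood for it. The array annotation named 443 such genes, of which 365 were among the 14678 genes tested, and the 158 that were tested but missed the rule on untreated arrays are not counted below. Members were thus chosen by detection on the untreated arrays, so untreated levels are given as a description, and a copper effect is set beside that of all 8539 genes that met the same rule.

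The lines were BEAS-2B, immortalized cells of human bronchial epithelium, and HCT116, from a human colorectal carcinoma. Cells in DMEM received CuSO4 at 800 µM (BEAS-2B) or 1400 µM (HCT116), so the line and the dose cannot be told apart. Per line, copper was sampled at 2, 4, 6, 12 and 18 h with 2 arrays a time, 10 in all. The 8 untreated arrays were pairs at 0 and 6 h and single arrays for 2, 4, 12 and 18 h. The labels do not tell whether a group's arrays came from separate cultures, so p-values measure the spread between these arrays, which may be technical.

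Zinc is held by pairs of cysteine and histidine residues in each C2H2 finger, and a row of fingers lets the protein read a stretch of DNA. Many human ZNF proteins also carry a KRAB domain, which recruits TRIM28 and, through it, the histone methyltransferase SETDB1 and HP1 proteins, so that the bound DNA, often a transposable element, is packed into silent chromatin. Their genes arose largely by tandem duplication and crowd together on chromosome 19. Other ZNF proteins activate transcription, bind RNA, or act in mitosis or at the ribosome. ZNF185, a LIM-domain protein of the actin cytoskeleton, shows that the symbol alone does not settle the fold.

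The share of all probes detected ran from 41.4 to 43.2% on untreated BEAS-2B arrays and from 36.2 to 37.9% on its copper arrays of 12 and 18 h. In HCT116 it ran from 39.6 to 42.4% and from 32.2 to 35.6%. Of the marker lists used to check the lines, 3 of 7 epithelial genes were detected on all 8 untreated BEAS-2B arrays and 6 of 7 on those of HCT116, against 6 and 1 of 7 mesenchymal genes. None of the 2 airway genes tested was detected on an untreated array of either line, and CDX2 was the 1 colon gene of 4 detected on all untreated HCT116 arrays. Of 5 leukocyte genes, 2 and 1 were detected on all untreated arrays.

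The members were dim. Their median untreated probe signal was 7.74 on the deposited log2 scale, against 8.73 for the 8332 other genes that met the rule, and it ran from 6.89 for ZNF236 to 13.79 for ZNF674. The highest 5 probe signals belonged to ZNF674, ZNF430, ZNF428, ZNF486 and ZNF207, though signals of different probes do not rank the genes. Just inside the threshold were ZNF821, ZNF236 and ZNF765, whose highest detection p on an untreated array was 0.00933, 0.0077 and 0.00561. Just outside were ZNF160, ZNF564 and ZNF195 with 0.0103, 0.0106 and 0.011, each detected on 15 of the 16 arrays. By position, 91 members lay on chromosome 19, 16 each on chromosomes 7 and 16, and 12 on chromosome 1.

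The start regions of 4 members are printed because the genes had large average effects of 1 direction in both lines, ZNF669 and ZNF175 upward, ZNF319 and ZNF672 downward, though the fall of ZNF319 differed in size between the lines. Each is 300 bases from RefSeq on GRCh38.p14, 250 before and 50 after the annotated start, read 5′ to 3′ on the gene's strand. They lie at chr1:247104307-247104606 (minus strand), chr19:51571033-51571332 (plus strand), chr16:58000623-58000922 (minus strand) and chr1:248837974-248838273 (plus strand). Capitals mark CCGGAAG or its reverse complement, letters at the core of the sequence that ETS-family factors bind.
ZNF669: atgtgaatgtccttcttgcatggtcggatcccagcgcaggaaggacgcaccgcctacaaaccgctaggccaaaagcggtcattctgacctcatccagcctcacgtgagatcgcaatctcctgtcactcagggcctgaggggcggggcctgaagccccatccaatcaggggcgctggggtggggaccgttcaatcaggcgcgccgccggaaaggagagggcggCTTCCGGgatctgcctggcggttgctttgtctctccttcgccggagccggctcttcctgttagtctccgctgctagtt
ZNF175: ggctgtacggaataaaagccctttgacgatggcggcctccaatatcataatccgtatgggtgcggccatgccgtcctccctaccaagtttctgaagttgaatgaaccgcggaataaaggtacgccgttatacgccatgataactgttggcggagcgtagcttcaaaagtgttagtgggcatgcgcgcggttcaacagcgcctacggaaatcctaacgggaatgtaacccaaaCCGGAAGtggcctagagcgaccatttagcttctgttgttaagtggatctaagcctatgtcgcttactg
ZNF319: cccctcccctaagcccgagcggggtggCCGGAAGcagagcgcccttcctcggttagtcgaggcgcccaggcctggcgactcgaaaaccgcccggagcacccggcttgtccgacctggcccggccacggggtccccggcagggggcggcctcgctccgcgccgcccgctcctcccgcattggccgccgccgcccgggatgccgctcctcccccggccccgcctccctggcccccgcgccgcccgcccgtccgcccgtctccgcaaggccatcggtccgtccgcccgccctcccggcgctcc
ZNF672: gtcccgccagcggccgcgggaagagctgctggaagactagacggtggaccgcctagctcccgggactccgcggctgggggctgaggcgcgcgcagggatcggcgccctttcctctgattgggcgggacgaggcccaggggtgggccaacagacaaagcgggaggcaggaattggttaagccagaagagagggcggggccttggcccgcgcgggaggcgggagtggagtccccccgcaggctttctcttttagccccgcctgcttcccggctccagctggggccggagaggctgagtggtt
The window of ZNF672 holds no match, and those of ZNF281 and ZNF318, described below, hold none either.

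RefSeq gave such a window for 180 of the 207 members, and for the 41 with more than 1 start the first listed was used. CCGGAAG or its reverse complement stood in 41.7% of the members' windows, in 21.2% of those of the other genes that met the rule, and in 10.7% of the windows of all 27305 genes. Its share was 45.2% in members that rose in both lines and 40.0% in members that fell in both. A window's match is a run of letters and not a site. The other 5 motifs were searched on both strands, matches were counted for each motif by itself, and CCGGAAG and AAGATGG can share the letters AAG. CCAAT, the NF-Y core, was found in 48.3% of the members' windows, 37.7% of those of the other genes of the rule and 35.7% of all windows. TGCNCNC, which holds the core of the metal response element, was found in 63.9%, 63.7% and 55.2%. GAANNTTC, the inner part of the heat shock element, was found in 6.67%, 4.42% and 6.87%, and AAGATGG, of the YY1 site, in 8.89%, 8.58% and 6.06%. TGACGTCA, the cyclic AMP response element, was found in 5.56%, 3.55% and 1.98%. The median GC content of the windows was 62.5% for members and 65.7% for the other genes of the rule, and within the members it was 60.8% where both lines rose and 65% where both fell.

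Copper moved the members both ways. A copper effect is the level with copper less the level without it at the matching time, in log2, a rise or fall is an adjusted p below 0.05 in limma's moderated test, and the average is taken over the 5 times. Values after ± are standard errors of the fit. In BEAS-2B 59 members rose on average, 93 fell and 55 were not called (28.5% and 44.9% of 207). Of all genes tested 18.4% rose and 30.3% fell, and of the genes that met the same rule 22.8% rose and 45.6% fell. In HCT116 68 members rose on average, 91 fell and 48 were not called (32.9% and 44.0%). Beside these stand 17.2% and 29.2% of all genes tested and 22.6% and 42.7% of the genes of the rule. The members' share of falls was thus close to that of other detected genes, and their share of rises stood above it, a description for which no list test was made. The median average effect was -0.19 in BEAS-2B, with quartiles of -0.64 and 0.35, and -0.14 in HCT116, with quartiles of -0.69 and 0.49, beside medians of -0.17 and -0.14 for the genes of the rule. Among members detected on all 36 arrays, a filter that drops those lost under copper, the medians were 0.20 and 0.28.

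The lines moved largely the same members. Of the 207, 50 rose in both lines and 77 fell in both, which is 24.2% and 37.2%, beside 15.1% and 33.4% of the genes of the rule. Members shared between the lines made up 84.7% of the BEAS-2B rises and 73.5% of the HCT116 rises, and 82.8% and 84.6% of the falls. Across the 207 members Pearson's r of the average effects was 0.83 and Spearman's rho 0.84, against 0.76 and 0.74 across the other 8332 genes of the rule. These points share the array platform and the probe of each gene, and the lines share no array. Calls in opposite directions were made for 5 members (2.42%, beside 3.6%). ZNF503 and ZNF236 were up in BEAS-2B but down in HCT116, and ZNF235, ZNF329 and ZNF558 did the reverse.

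**Figure D1:**
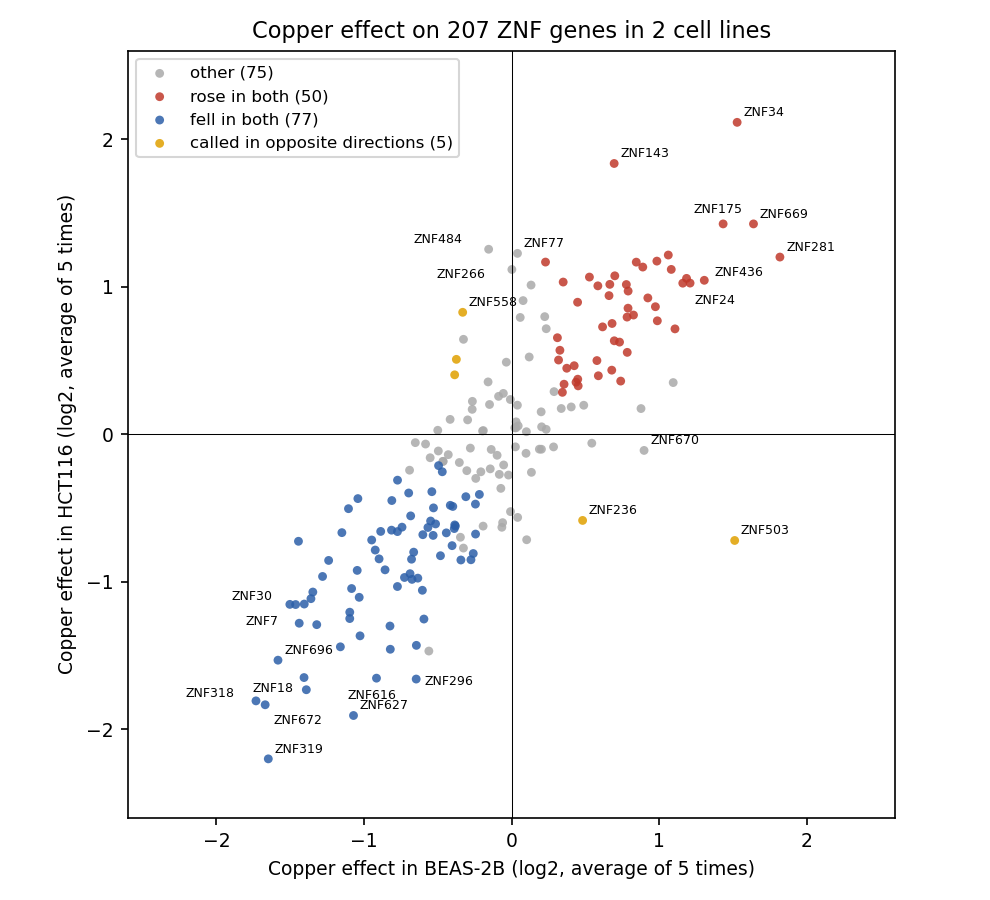
Average copper effect on each of the 207 members, BEAS-2B on the x axis and HCT116 on the y axis, both as log2 differences. Points lie along the diagonal, 50 called upward and 77 called downward in both lines, and ZNF503 lies apart at 1.51 and -0.72.

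ZNF281, a transcription factor studied in stem cell identity and in epithelial-mesenchymal transition, had the largest average rise in BEAS-2B. Its log2 normalized level on the 8 untreated BEAS-2B arrays ran from 8.24 through a median of 8.58 to 9.00. On copper it read 9.86 and 10.02 at 2 h, 10.30 and 10.30 at 4 h, 10.64 and 10.68 at 6 h, 10.33 and 10.60 at 12 h, and 10.54 and 10.58 at 18 h. Every copper array was above every untreated one. In HCT116 the untreated arrays ran from 7.19 through 7.50 to 7.71 and the copper arrays from 8.06 through 8.65 to 9.15, again without overlap. The average effect was 1.82 ± 0.06 (adjusted p = 4.66e-14) in BEAS-2B and 1.20 ± 0.06 (adjusted p = 1.83e-11) in HCT116.

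ZNF669, a KRAB zinc finger gene on chromosome 1, ran from 6.80 through 7.03 to 7.65 on untreated BEAS-2B arrays. Copper arrays read 8.24 and 8.36 at 2 h, 8.54 and 8.56 at 4 h, 8.64 and 8.69 at 6 h, 9.18 and 9.22 at 12 h, and 9.49 and 9.54 at 18 h, all above the untreated arrays. In HCT116 untreated arrays ran from 6.11 through 6.39 to 6.83, and copper arrays read 6.61 and 6.78 at 2 h and 8.81 and 9.09 at 18 h. There the 2 h arrays lay within the untreated range and the later ones above it. The average effects were 1.64 ± 0.08 (adjusted p = 5.05e-12) and 1.43 ± 0.08 (adjusted p = 3.7e-11). Its start region, printed above, holds 1 match to CCGGAAG on the reverse strand.

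ZNF175, a KRAB gene on chromosome 19 known as a suppressor of HIV transcription in macrophages, rose in both lines. Untreated arrays ran from 6.41 through 6.74 to 6.91 in BEAS-2B and from 5.83 through 6.03 to 6.83 in HCT116. Its copper arrays spanned 7.05 to 8.86 in BEAS-2B, all above the untreated arrays, and 6.30 to 8.56 in HCT116, where the 2 h arrays and the untreated 12 h array overlapped. The average effects were 1.43 ± 0.07 (adjusted p = 1.8e-11) and 1.43 ± 0.07 (adjusted p = 2.18e-11), and the difference between them was 0.01 ± 0.11.

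ZNF34 had the largest fitted late rise of the members in both lines. In BEAS-2B its untreated arrays ran from 5.33 through 5.64 to 6.01, and copper arrays read 5.51 and 5.64 at 2 h, 5.66 and 5.90 at 4 h and 5.89 and 6.02 at 6 h. They then read 8.74 and 8.86 at 12 h and 9.44 and 9.46 at 18 h. The early copper arrays overlapped the untreated ones and the late ones stood clear of them. In HCT116 the untreated arrays ran from 5.73 through 6.29 to 6.49, and copper arrays read 6.17 and 6.64 at 2 h, 7.65 and 7.77 at 4 h, 8.36 and 8.52 at 6 h, 9.55 and 9.85 at 12 h, and 9.85 and 10.04 at 18 h. The late effect, the mean of 12 and 18 h, was 3.78 in BEAS-2B and 3.45 in HCT116. Late minus early, the late effect less the mean effect of 2 and 4 h, was 3.81 ± 0.22 (adjusted p = 8.93e-10) and 2.64 ± 0.22 (adjusted p = 7.73e-08).

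ZNF143 activates small nuclear RNA genes and many promoters. Its untreated arrays ran from 7.71 through 7.89 to 8.02 in BEAS-2B and from 7.33 through 7.92 to 8.26 in HCT116. The 4 copper arrays of 12 and 18 h spanned 9.01 to 9.51 in BEAS-2B and 10.80 to 11.20 in HCT116, above all untreated arrays of their line. The average effect was 0.70 ± 0.08 (adjusted p = 4.96e-07) in BEAS-2B and 1.84 ± 0.08 (adjusted p = 1.34e-12) in HCT116.

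ZNF274 is the KRAB protein known to bring SETDB1 to the 3′ ends of other zinc finger genes. Untreated arrays ran from 7.49 through 7.79 to 7.97 in BEAS-2B and from 7.23 through 7.40 to 7.76 in HCT116. The late copper arrays read 9.72 to 10.03 and 9.06 to 9.38, above every untreated array. Its average effects were 0.98 ± 0.07 (adjusted p = 9.22e-10) and 0.86 ± 0.07 (adjusted p = 5.14e-09). Late minus early in BEAS-2B was 1.79 ± 0.16 (adjusted p = 1.3e-07).

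Further rises were named in BEAS-2B. ZNF436, a KRAB gene, had effects of 1.31 ± 0.10 (adjusted p = 2.16e-09) and 1.04 ± 0.10 (adjusted p = 4.63e-08). ZNF24, a SCAN-domain protein known to repress VEGFA, had 1.21 ± 0.10 (adjusted p = 1.43e-08) and 1.03 ± 0.10 (adjusted p = 1.42e-07). ZNF24 in HCT116 read 1.55 at 6 h, -0.03 at 12 h and 1.39 at 18 h, so 1 time broke its course.

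ZNF319 had the largest fitted average fall in HCT116. Its untreated arrays there ran from 7.62 through 7.93 to 8.09, and copper arrays read 7.30 and 7.50 at 2 h, 6.18 and 6.29 at 4 h, 5.22 and 5.60 at 6 h, 4.44 and 5.10 at 12 h, and 4.66 and 5.12 at 18 h. None of the 4 late copper arrays detected the probe, so only a bound can be given for that stage, at least 8.41-fold lower. In BEAS-2B the untreated arrays ran from 7.90 through 8.12 to 8.44 and the copper arrays from 5.06 through 6.64 to 7.70, and no copper array reached an untreated one in either line. The average effect was -1.65 ± 0.12 (adjusted p = 1.36e-09) in BEAS-2B and -2.20 ± 0.12 (adjusted p = 2.91e-11) in HCT116. Its window printed above has a GC content of 80.0%.

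ZNF672 lies on chromosome 1, like ZNF669. On untreated BEAS-2B arrays it ran from 8.33 through 8.48 to 8.70. Copper arrays read 8.05 and 8.16 at 2 h, 7.40 and 7.55 at 4 h, 7.65 and 7.79 at 6 h, 5.11 and 5.56 at 12 h, and 5.29 and 5.76 at 18 h, all below the untreated range. In HCT116 the untreated arrays ran from 8.42 through 8.64 to 8.85, and copper arrays read 8.36 and 8.58 at 2 h, of which 1 lay within the untreated range, and 4.92 and 4.99 at 18 h. Its average effects were -1.67 ± 0.12 (adjusted p = 8.16e-10) and -1.83 ± 0.12 (adjusted p = 2.53e-10), and late minus early was -2.40 ± 0.27 (adjusted p = 1.94e-06) and -2.49 ± 0.27 (adjusted p = 1.2e-06).

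ZNF318, whose mouse counterpart is needed for IgD expression in B cells, had the largest fitted average fall in BEAS-2B. Untreated arrays ran from 8.95 through 9.16 to 9.37 in BEAS-2B and from 8.57 through 8.63 to 8.82 in HCT116. The copper arrays spanned 6.24 to 8.83 and 4.99 to 8.27, and none reached the untreated range. In HCT116 8 of the 10 copper arrays detected the probe. The average effects were -1.73 ± 0.17 (adjusted p = 6.02e-08) and -1.81 ± 0.17 (adjusted p = 3.86e-08). A second probe that met the rule gave smaller falls, of -0.56 and -0.79. Replicates were further apart than elsewhere at the late times in HCT116, with 5.15 and 6.44 at 12 h and 4.99 and 6.05 at 18 h.

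**Figure D2:**
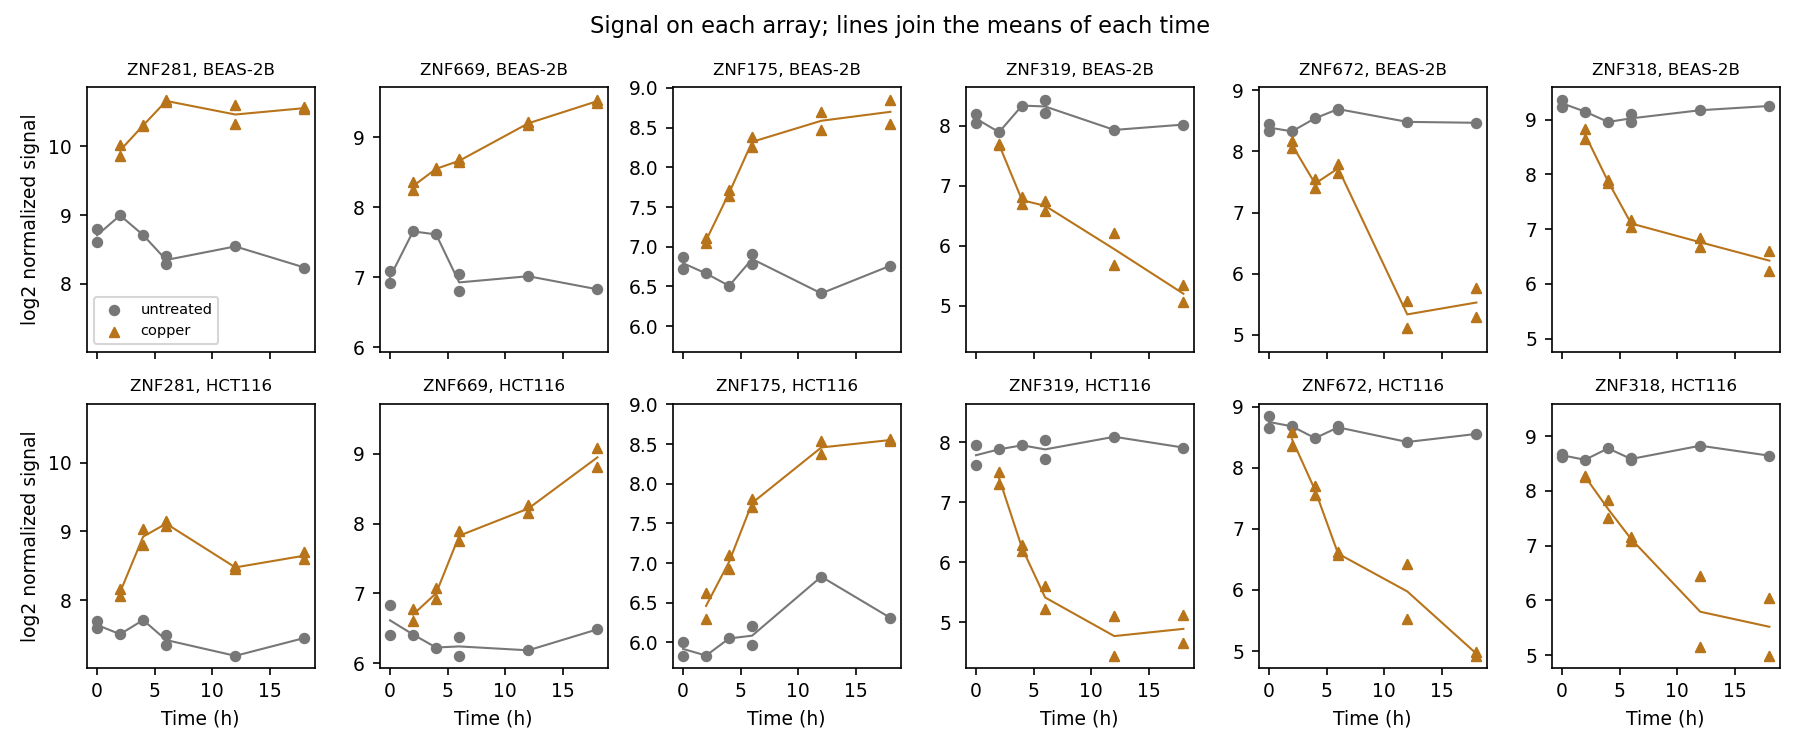
Log2 normalized signal of 6 members on every array against time in hours, BEAS-2B above and HCT116 below, with the 2 panels of a gene on 1 scale that starts above 0. Circles are untreated arrays, triangles copper arrays, and lines join the means of each time; ZNF281, ZNF669 and ZNF175 climb away from their untreated arrays and ZNF319, ZNF672 and ZNF318 drop.

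ZNF217, a repressor that works with CtBP and is amplified in breast cancers, fell in both lines, though not yet at 2 h in HCT116. Its untreated HCT116 arrays ran from 7.65 through 8.21 to 8.33, and copper arrays read 8.45 and 8.53 at 2 h, 7.38 and 7.58 at 4 h, 6.54 and 6.67 at 6 h, 4.96 and 5.24 at 12 h, and 4.86 and 5.36 at 18 h. They began above the untreated range and ended far below it. Neither copper array of 18 h detected the probe, at least 5.81-fold lower there. Late minus early in HCT116 thus rests in part on values below detection. Late minus early was -2.52 ± 0.19 in HCT116 (adjusted p = 1.99e-08) and -1.03 ± 0.19 in BEAS-2B (adjusted p = 0.000335). ZNF22, a short zinc finger protein first described in tooth development, had late minus early of -2.37 ± 0.14 in HCT116 (adjusted p = 1.12e-09).

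Deep falls were also named for ZNF232, ZNF18, ZNF30, ZNF616, ZNF696, ZNF7 and ZNF627, the last given below with the differences between lines. ZNF232, a SCAN-domain gene, was detected by the probe used on none of the 4 late copper arrays of either line, at least 4.77-fold lower in BEAS-2B (adjusted p = 1.13e-10) and at least 4.89-fold lower in HCT116 (adjusted p = 1.55e-10). A second ZNF232 probe that met the rule had smaller average effects, -0.72 and -0.79 against -1.41 and -1.65. ZNF18, with a SCAN and a KRAB domain, was at least 3.64-fold lower late in BEAS-2B (adjusted p = 4.27e-07) and at least 6.02-fold lower in HCT116 (adjusted p = 9.78e-09). ZNF696 stayed detected on all 20 copper arrays, with average effects of -1.58 ± 0.10 (adjusted p = 1.73e-10) and -1.53 ± 0.10 (adjusted p = 3.06e-10). ZNF616 was at least 1.96-fold lower late in BEAS-2B (adjusted p = 2.66e-05) and at least 3.47-fold lower in HCT116 (adjusted p = 3.16e-08), detected on no late copper array of either line. ZNF30 had -1.50 ± 0.07 in BEAS-2B (adjusted p = 3.5e-12) and ZNF7 -1.46 ± 0.08 (adjusted p = 4.48e-11). Neither BEAS-2B copper array of 18 h detected ZNF30, at least 3.28-fold lower there. Its average thus rests in part on values below detection.

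More members were called at 6, 12 and 18 h than at 2 and 4 h in both lines. The effects at 6 h rest on 2 untreated arrays a line and those of the other times on 1. In BEAS-2B 3 members rose and 2 fell at 2 h (beside 2.55% and 1.17% of the genes of the rule), 29 rose and 38 fell at 4 h (9.45% and 12.4%), and 45 rose and 50 fell at 6 h (17.8% and 27.8%). At 12 h 46 rose and 71 fell (17.1% and 34.9%), and at 18 h 52 rose and 81 fell (18.7% and 42.1%). In HCT116 3 rose and 0 fell at 2 h (1.09% and 0.0703%), and 23 rose and 23 fell at 4 h (6.48% and 8.21%). There 31 members had an unadjusted p below 0.05 at 2 h, beside 944 of the 8539 genes of the rule. At 6 h 54 rose and 71 fell (16.6% and 28.1%), at 12 h 55 and 68 (16.6% and 32.8%), and at 18 h 61 and 70 (19.6% and 39.2%). As shares of the 207, rises at 18 h were 25.1% in BEAS-2B and 29.5% in HCT116, and falls 39.1% and 33.8%. The early counts rest on few arrays. In BEAS-2B 3 members were called at 2 h without copper replicate 2 of that time, and 40 at 4 h without copper replicate 1, and the 3 calls of HCT116 at 2 h ran from 0 to 3 with single arrays left out. With all untreated arrays of the line as the reference, 44 and 103 members were called at 2 and 4 h in BEAS-2B and 30 and 101 in HCT116. The share of all genes called with that reference was not computed, so these counts say nothing particular to the members.

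**Figure D3:**
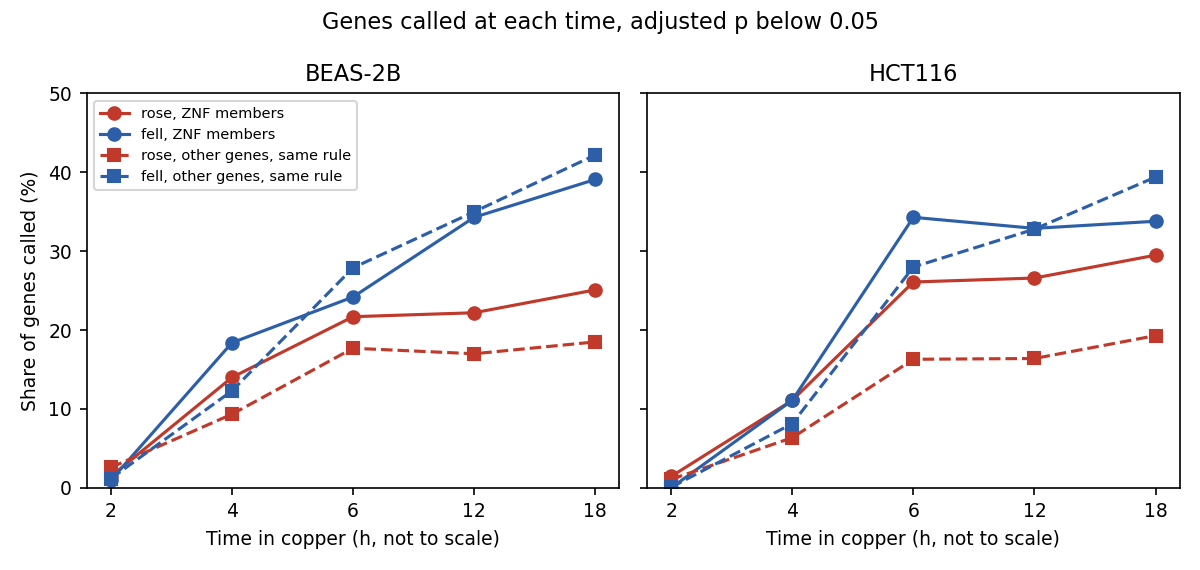
Share of genes called at each time of copper, in percent, with BEAS-2B left and HCT116 right. Circles on solid lines are the 207 members and squares on dashed lines the 8332 other genes of the same rule, red for rises and blue for falls; the members' rises lie above the dashed red line from 4 h on, and their falls lie above the dashed blue line at 4 h and below it at 18 h in both lines.

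The late effect put 59 members up and 94 down in BEAS-2B (beside 21.8% and 46.8%) and 65 up and 89 down in HCT116 (22.8% and 43.9%), with medians of -0.35 and -0.27. Late minus early was above 0 by the test for 33 members and below it for 58 in BEAS-2B (15.1% and 32.4%), and for 45 and 58 in HCT116 (15.2% and 31.3%). The effect kept 1 sign at all 5 times in 94 members in BEAS-2B, 44 positive and 50 negative, and in 102 in HCT116, 48 positive and 54 negative. It was largest in size at 18 h for 97 and 100 members. These counts of sign and size were not made for the other genes of the rule, so they describe the members alone.

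**Figure D4:**
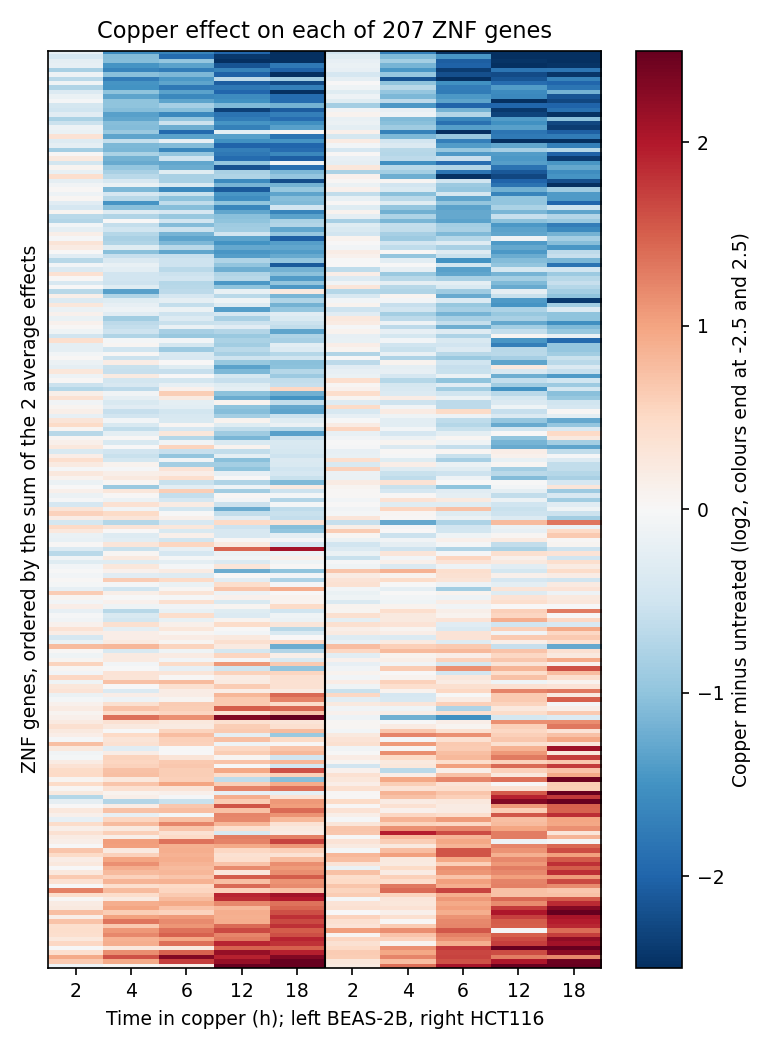
Copper effect on each of the 207 members (rows, ordered by the sum of both average effects) at 2, 4, 6, 12 and 18 h in BEAS-2B (left) and HCT116 (right). Blue is lower and red higher with copper, in log2; the colours deepen towards 18 h and most rows have the same colour in both lines.

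A few members changed direction on the way, called upward at 1 time and downward at another. There were 7 in BEAS-2B and 2 in HCT116, and other genes were not counted in this way. ZNF16 did so in both lines, with effects of 0.79, 0.84, 0.56, 0.23 and -1.24 at 2, 4, 6, 12 and 18 h in BEAS-2B and 0.78, 0.60, 0.65, -0.58 and -1.27 in HCT116. ZNF200 in HCT116 ran the other way, from -0.58, -1.29 and -0.77 to 0.79 and 1.33. The others in BEAS-2B were ZNF225, ZNF35, ZNF410, ZNF416, ZNF77 and ZNF830. These genes were picked after their values were seen.

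Fewer members were detected as time went on. Of the 207, 205 were detected on both copper arrays of 2 h in each line, and 156 (75.4%) in BEAS-2B and 142 (68.6%) in HCT116 on both of 18 h. For the other genes of the rule the shares at 18 h were 89.7% and 85.1%. The members' probes were dimmer to begin with, as given above, and the part of that in these shares was not tested. No late copper array detected 17 members in BEAS-2B and 19 in HCT116, whose late levels are known only to lie below detection.

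The average effect differed between the lines for 55 members, 24 higher and 31 lower in BEAS-2B, beside 15.5% and 17.3% of the genes of the rule (11.6% and 15.0% of members). Late, 28 were higher and 38 lower in BEAS-2B, beside 16.7% and 19.5%. ZNF503, a repressor of the NET family that acts in development, differed most. Its untreated arrays ran from 6.77 through 7.37 to 7.71 in BEAS-2B, and copper arrays read 7.73 and 7.95 at 2 h, 7.94 and 8.35 at 4 h, 8.53 and 8.61 at 6 h, 9.61 and 9.68 at 12 h, and 10.00 and 10.16 at 18 h. In HCT116 untreated arrays ran from 8.18 through 8.45 to 8.62, and copper arrays read 8.04 and 8.11 at 2 h, 7.14 and 7.41 at 4 h, 7.04 and 7.12 at 6 h, 7.97 and 8.20 at 12 h, and 7.90 and 8.28 at 18 h. BEAS-2B climbed above all its untreated arrays from the lower start, and HCT116 dipped at 4 and 6 h and came back near its untreated range. The effects were 1.51 ± 0.08 (adjusted p = 2.25e-11) and -0.72 ± 0.08 (adjusted p = 4.97e-07), a difference of 2.23 ± 0.11 (adjusted p = 8.79e-11).

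ZNF236, a protein with many fingers, was near the detection limit in untreated cells, from 5.03 through 5.36 to 5.56 in BEAS-2B. There its late copper arrays read 6.58 to 7.56, above every untreated array, and in HCT116 none of the late copper arrays detected it. The difference of the average effects was 1.07 ± 0.15 (adjusted p = 3.35e-05). ZNF296, a partner of KLF4 in reprogramming studies, started at 6.37 to 7.24 in untreated BEAS-2B and 8.65 to 10.19 in untreated HCT116, and had effects of -0.65 ± 0.12 and -1.66 ± 0.12. ZNF670 had 0.90 ± 0.14 against -0.11 ± 0.14, and ZNF627 -1.07 ± 0.08 against -1.91 ± 0.08.

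Lower in BEAS-2B were ZNF484, ZNF77, ZNF558, ZNF143 and ZNF266. ZNF266 read 7.94 to 8.31 on untreated and 7.92 to 8.36 on copper arrays of BEAS-2B, which overlapped throughout. In HCT116 its untreated arrays spanned 6.41 to 7.13 and its late copper arrays 8.62 to 8.92. The effects were 0.00 ± 0.06 and 1.12 ± 0.06, and the difference was -1.11 ± 0.09 (adjusted p = 4.15e-08). ZNF484 had -0.16 ± 0.12 and 1.25 ± 0.12, ZNF77 0.04 ± 0.10 and 1.23 ± 0.10, and ZNF558, a KRAB gene, -0.33 ± 0.10 and 0.83 ± 0.10.

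**Figure D5:**
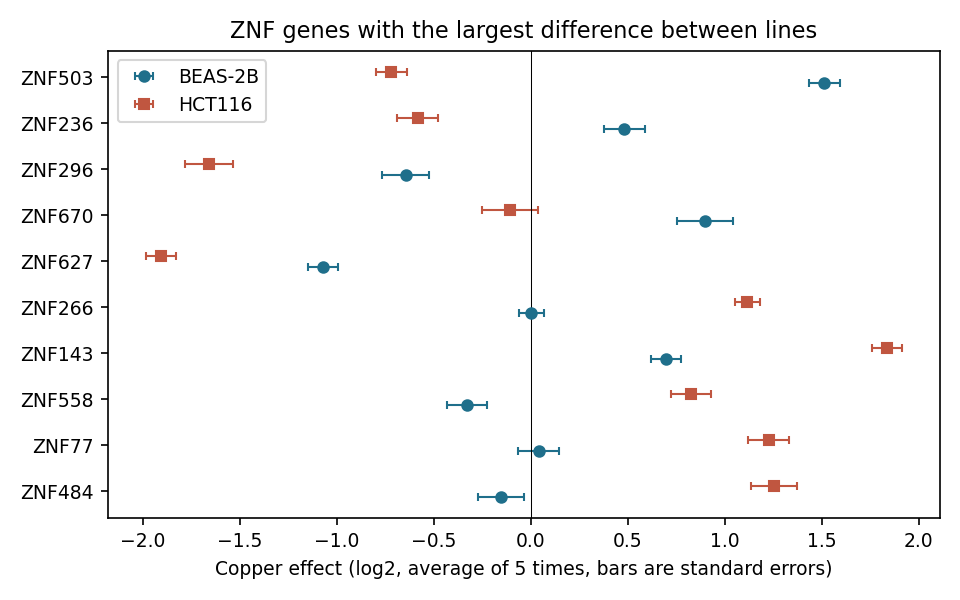
Average copper effect, in log2 with standard errors, of the 10 members named for the largest difference between lines, circles for BEAS-2B and squares for HCT116. ZNF503 has the widest gap, 1.51 against -0.72.

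Untreated levels differed between lines for part of the members, which is described without a test because these arrays chose the members. The median difference, BEAS-2B minus HCT116, was 0.07. The 8 arrays of each line did not overlap for 82 members (39.6%), 53 higher in BEAS-2B and 29 higher in HCT116, beside 48.0% of the other genes of the rule. ZNF365, named in studies of the centrosome and genome stability, read 8.34 to 9.07 in BEAS-2B and 5.53 to 6.50 in HCT116. ZNF462, mutated in a neurodevelopmental syndrome, was higher in BEAS-2B by 1.88, ZNF69 by 1.52 and ZNF185 by 1.41. ZNF296 was 2.93 higher in HCT116, and the differences of ZNF215 and ZNF239, BEAS-2B minus HCT116, were -2.47 and -1.97. These genes were given as examples after their values were seen.

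Of the 91 members on chromosome 19, 24 rose and 39 fell in BEAS-2B and 32 rose and 35 fell in HCT116, and of the 116 on other chromosomes 35 rose and 54 fell and 36 rose and 56 fell. As shares, rises were 26.4% and 35.2% on chromosome 19, 30.2% and 31.0% elsewhere, and 18.5% and 21.6% for the 481 other genes of chromosome 19 that met the rule. Falls were 42.9% and 38.5% on chromosome 19, 46.6% and 48.3% elsewhere, and 44.7% and 37.0% for those other genes. The 9 members on chromosome 10 all fell in HCT116, from -0.21 for ZNF511 to -1.47 for ZNF239, and 7 of them fell in BEAS-2B, where ZNF503 rose. Of the 323 other genes of the rule on chromosome 10, 46.1% fell in HCT116 and 44.9% in BEAS-2B. The 5 on chromosome 20, ZNF133, ZNF217, ZNF337, ZNF341 and ZNF343, all fell in HCT116 and 4 of them in BEAS-2B, beside 42.7% and 49.6% of 234 other genes there. Those chromosomes were picked after their values were seen.

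Tandem neighbours were called alike in some pairs and apart in others. Among 39 pairs of members that follow each other with no other protein-coding gene between them, both were called the same way in 12 pairs in each line, and in opposite ways in 10 pairs in BEAS-2B and 7 in HCT116. As shares, 30.8% of neighbour pairs were called the same way in each line, beside 28.1% and 29.9% of all pairs of members. Opposite calls made up 25.6% and 17.9% of neighbour pairs, beside 25.7% and 29.0% of all pairs. ZNF274 had 0.98 and 0.86 while its neighbour ZNF544 had -0.68 and -0.85. ZNF548 had 0.78 and 1.02 and its neighbour ZNF17 -0.55 and -0.59. ZNF777 had -1.16 and -1.44 and its neighbour ZNF746 -0.86 and -0.92, and ZNF226 had 0.36 and 0.34 beside ZNF227 with 0.23 and 1.17. These pairs were chosen as examples after their values were seen. For the 25 pairs on chromosome 19 the median gap between neighbours was 0.73 and 0.81, and over all pairs of its 91 members it was 0.59 and 0.76.

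Of the 103 members with the higher untreated probe signal 35.0% rose in BEAS-2B and 40.8% in HCT116. Of the other 104 the shares were 22.1% and 25.0%, while falls were 45.6% and 47.6% against 44.2% and 40.4%. The part of probe brightness in these shares was not tested. Of the 103 members with the longer genes 38.8% and 42.7% fell, and of the 104 with the shorter genes 51% and 45.2%.

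Of 19 members with a known role other than KRAB repression, a list drawn up from general knowledge, 10 rose and 5 fell in BEAS-2B and 6 rose and 7 fell in HCT116. As shares 52.6% rose and 26.3% fell in BEAS-2B, beside 22.8% and 45.6% of the genes of the rule, and 31.6% and 36.8% in HCT116, beside 22.6% and 42.7%. The list's medians were 0.40 and 0.08, and it was drawn up after the values were seen. It is not complete, since ZNF22, ZNF24, ZNF185 and ZNF296, given other roles above, are not on it. Its shares thus describe these 19 genes alone. ZNF622, the counterpart of a yeast factor in the maturation of the large ribosomal subunit, rose by 0.70 ± 0.06 (adjusted p = 9.38e-09) and 0.63 ± 0.06 (adjusted p = 3.69e-08). ZNF593, which has a yeast counterpart in the same pathway, fell by 0.43 ± 0.08 in BEAS-2B (adjusted p = 9.12e-05) and had -0.14 ± 0.08 in HCT116. ZNF598, the ubiquitin ligase that marks collided ribosomes, fell, with effects of -0.38 ± 0.06 (adjusted p = 1.95e-05) and -0.62 ± 0.06 (adjusted p = 5.07e-08). ZNF207, a kinetochore partner of BUB3, fell, with effects of -0.77 ± 0.06 (adjusted p = 6.48e-09) and -0.31 ± 0.06 (adjusted p = 0.000374).

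Among transcription factors of that list, ZNF652, which works with the corepressor CBFA2T3, had 0.78 ± 0.07 (adjusted p = 6.16e-08) and 0.79 ± 0.07 (adjusted p = 5.69e-08). ZNF384, a fusion partner in acute leukaemia, had 0.73 ± 0.07 (adjusted p = 1.09e-07) and 0.62 ± 0.07 (adjusted p = 9.2e-07). ZNF148, which binds GC-rich promoters, rose in BEAS-2B by 0.40 ± 0.10 (adjusted p = 0.00294) and had 0.19 ± 0.10 in HCT116. ZNF451, a SUMO ligase, had -0.02 ± 0.09 in BEAS-2B and fell by 0.28 ± 0.09 in HCT116 (adjusted p = 0.0156).

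The genes that KRAB proteins depend on for silencing fell more often than they rose. Of 34 listed, 30 were tested, and 0 rose and 18 fell in BEAS-2B, 3 rose and 13 fell in HCT116. As shares 60.0% and 43.3% fell, beside 30.3% and 29.2% of all genes tested, and of the 24 that met the rule on untreated arrays 17 and 13 fell. The latter are 70.8% and 54.2%, beside 45.6% and 42.7% of all genes of the rule. TRIM28, given for its place in the pathway, fell, with effects of -0.50 ± 0.07 (adjusted p = 4.14e-06) and -0.35 ± 0.07 (adjusted p = 0.000228), and SETDB1 had -0.87 ± 0.09 (adjusted p = 2.98e-07) and -0.97 ± 0.09 (adjusted p = 7.71e-08). SUV39H1, a histone methyltransferase of heterochromatin, fell, with effects of -1.77 ± 0.08 (adjusted p = 2.14e-12) and -2.13 ± 0.08 (adjusted p = 2.21e-13). UHRF1, which guides DNMT1 to replicated DNA, fell, with effects of -0.94 ± 0.07 (adjusted p = 2.73e-09) and -0.62 ± 0.07 (adjusted p = 6.34e-07). SMARCAD1, a chromatin remodeller that binds TRIM28, fell, with effects of -1.06 ± 0.07 (adjusted p = 8.93e-10) and -1.01 ± 0.07 (adjusted p = 1.98e-09). ATF7IP2, a relative of the SETDB1 partner ATF7IP, rose by 1.31 ± 0.09 in HCT116 (adjusted p = 7.14e-10), from a level detected on 7 of 8 untreated arrays. Over all 30 tested, the list's medians were -0.23 and -0.10, beside -0.04 and -0.04 over all genes tested. The genes of the rule had medians of -0.17 and -0.14. These are not set against the list's, since only 24 of the 30 met the rule and the medians of those 24 are not given here.

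Related families had fewer members on the arrays. Of 33 ZBTB genes tested 8 rose and 12 fell in BEAS-2B and 7 rose and 10 fell in HCT116, of 11 ZSCAN genes 2 and 5, then 4 and 3, of 7 ZKSCAN genes 0 and 3, then 1 and 3, and of 12 ZFP genes 2 and 4 in each line. For ZBTB genes these are 24.2% and 36.4% in BEAS-2B and 21.2% and 30.3% in HCT116, beside 18.4% and 30.3%, then 17.2% and 29.2%, of all genes tested. Falls made up 45.5% and 27.3% of ZSCAN genes, 42.9% of ZKSCAN genes in each line and 33.3% of ZFP genes in each line. ZBTB43 rose by 2.00 ± 0.08 (adjusted p = 7.44e-13) and 1.13 ± 0.08 (adjusted p = 2e-09). ZFP36, a CCCH protein that degrades messenger RNAs and no C2H2 factor, rose by 1.43 ± 0.07 (adjusted p = 6.25e-12) and 1.22 ± 0.07 (adjusted p = 5.31e-11).

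Among the 39 members with more than 1 probe that met the rule, the probes' average effects lay a median of 0.26 apart in BEAS-2B and 0.29 in HCT116. They had opposite signs in 1 line or both for 13 of them. ZNF322 had -1.04 and -0.44 with its brighter probe and 0.53 and 0.30 with the other, so its direction rests on the probe. ZNF430 had 0.44 and 0.35 with its bright probe and 1.16 and 1.47 with its dim one, and ZNF398 had -1.03 and -1.37 against -0.08 and 0.06. ZNF322, ZNF430 and ZNF398 were chosen as examples here after their values were seen. Members of this family resemble each other in sequence, and binding of a probe to a related transcript was not tested.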

How the data were processed

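RNA was measured on 36 Illumina bead arrays, 18 per line, using RNeasy extracts and biotin-labelled cRNA, per the labels' protocols. The authors deposited log2 signals per probe, called non-normalized per the file headers, and a detection p-value beside each. BeadStudio is named per the submitters' processing notes, and other steps are not given in the sources used here. A second deposited table of quantile-normalized log2 values served as an alternative. The array means of the first table, 7.31 to 7.33, lie close together, and whether the arrays were scaled before deposit is unknown. Probes were named through the platform annotation, which gave 1 symbol to 29511 of 43960 probes, several to 0 and none to 14449, and 13 probes with missing values were left out.

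Signals were taken to the linear scale and processed with neqc of limma 3.58.1 in R 4.3.3 (background from the detection p-values, offset 16, quantile normalization, log2). A gene's probe was the brightest of those detected on all 16 untreated arrays or, where there was none, the brightest of those detected on at least 2 arrays. One limma model with a coefficient for each of 22 groups and 14 residual degrees of freedom gave all contrasts, with Benjamini-Hochberg adjustment of p over 14678 genes and a threshold of 0.05. The median residual SD of the members was 0.21. The number of arrays limits the precision, above all where 1 untreated array stands for a time. Where no copper array of a stage detected a probe, the undetected side was set on each array to the lowest value among detected probes, or to the probe's own value if higher, and the fold given as a bound. The script was tested on simulated data.

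Members, gene lists and motifs were chosen with earlier results of these data known, and the list of roles and the motifs after the values were seen. Named members are the 6 largest falls and rises of the average per line whose sign held at all 5 times, the 4 highest and 4 lowest for late minus early, the 5 highest and 5 lowest for the difference between lines, the 5 brightest probes, and the 3 genes on each side of the detection threshold, with others marked as chosen later. Alternatives changed the normalization, background, offset, detection filter, probe, symbol rule, reference arrays, times and single arrays. Replicate numbers did not pair arrays: replicate differences had a median correlation of 0.0015 over 21 pairs of BEAS-2B groups and -0.0015 over 21 of HCT116. Protein features of the members were not analysed here.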

Additional observations from a re-analysis of the deposited data

Results flagged for a closer look

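Among the members named, the average copper effect differed between the lines by limma's test of the difference in 18. As BEAS-2B minus HCT116 in log2, the differences above 0 were ZNF503 2.23, ZNF236 1.07, ZNF296 1.01, ZNF670 1.01, ZNF627 0.84, ZNF616 0.74, ZNF217 0.64, ZNF281 0.62 and ZNF319 0.55, with adjusted p from 8.79e-11 to 0.0196. Those below 0 were ZNF484 -1.41, ZNF77 -1.19, ZNF558 -1.16, ZNF143 -1.14, ZNF266 -1.11, ZNF34 -0.59, ZNF207 -0.46, ZNF30 -0.35 and ZNF22 -0.25, with adjusted p from 4.15e-08 to 0.0381. ZNF616 was detected on no late copper array of either line, and ZNF319, ZNF236 and ZNF30 on none of HCT116. ZNF217 was detected on neither HCT116 copper array of 18 h, and ZNF30 on neither BEAS-2B copper array of 18 h. The differences of these genes rest in part on values below detection. Dose and line change together in all of them, so they cannot be told apart.

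The effect of 12 and 18 h differed from that of 2 and 4 h, in log2 as late minus early, for 8 named members in each line. In BEAS-2B these were ZNF672 -2.40, ZNF318 -1.87, ZNF232 -1.78, ZNF7 -1.65, ZNF34 3.81, ZNF236 2.21, ZNF274 1.79 and ZNF503 1.71, with adjusted p from 8.93e-10 to 0.000866. In HCT116 they were ZNF217 -2.52, ZNF672 -2.49, ZNF318 -2.37, ZNF22 -2.37, ZNF34 2.64, ZNF77 2.26, ZNF557 2.25 and ZNF143 2.07, with adjusted p from 1.12e-09 to 9.63e-05. ZNF232 in BEAS-2B was undetected at the late times, and ZNF217 in HCT116 at 18 h. In HCT116 8 of the 10 copper arrays detected ZNF318. ZNF672, ZNF318 and ZNF34 appear in both. No group had more than 2 arrays, so a single array far from its group could not be looked for.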

How the results depend on the processing

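No named effect reversed under the alternatives run, and of 72 named effects the deposited normalized values, no background correction, an offset of 50, no detection filter, either other choice of probe and symbols with a final letter left all 72 on their side of the threshold. With a replicate block, 146 members were called on average in BEAS-2B against 152 and 155 in HCT116 against 159, 8 at 2 h in BEAS-2B, and 1 named effect no longer passed. Leaving 1 time out of the average took 0 to 3 named effects below the threshold. Keeping only genes detected on all 36 arrays, which by construction drops members that fell out of detection, left 33 falls on average, 34 late and 28 late minus early in BEAS-2B, with medians of 0.20, 0.34 and 0.17, and 31, 29 and 23 in HCT116, with medians of 0.28, 0.45 and 0.27, so these medians changed sign. It called 12 members at 2 h and 87 at 18 h in BEAS-2B, and 5, 83, 81 and 83 at 2, 6, 12 and 18 h in HCT116. All 10 copper arrays detected the probe used for 149 members in BEAS-2B and for 134 in HCT116. The filter could keep a member through another of its probes, so 134 is no upper limit. Some effects under the filter may thus come from a probe other than the one used above. Counts under the filter come from a smaller set and cannot be set directly beside counts over all members. The share of other genes called under this filter is not given here. At 2 h in BEAS-2B, where 5 members were called, the deposited values gave 12, no background correction 12, an offset of 50 13, and the mean of a gene's probes 3, which gave 1 in HCT116. With all untreated arrays of a line as reference, 44 members were called at 2 h and 103 at 4 h in BEAS-2B, and 30 and 101 in HCT116. Late minus early then fell for 98 and 88 members, and 43 were higher in BEAS-2B late. With 1 array left out, the count at 2 h ran from 3 to 7 in BEAS-2B, lowest without copper replicate 2 of 2 h, and from 0 to 3 in HCT116. At 4 h in BEAS-2B it ran from 40, without copper replicate 1 of 4 h, to 72. Falls on average ran from 90 to 98 and from 91 to 93, and rises from 57 to 60 and from 67 to 70. Dim probes close to background limit what can be seen of the falls.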

Other observations

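Several members outside the named set were lost from detection late in copper, and they were picked here after their values were seen. ZNF213 was at least 4.45-fold lower on the late arrays of BEAS-2B (adjusted p = 1.03e-08, limma), none of which detected it, and ZNF816 at least 4.31-fold lower (adjusted p = 8.06e-06). ZNF398 was at least 3.59-fold lower late in HCT116 (adjusted p = 3.16e-05) and ZNF248 at least 2.95-fold lower (adjusted p = 0.000179). For ZNF398 this rests on the probe used, since a second probe that met the rule had average effects of -0.08 and 0.06. ZNF341, ZNF184, ZNF525, ZNF551 and ZNF792, beside the named members ZNF18, ZNF232 and ZNF616, were detected on no late copper array of either line. The bounds of ZNF551 and ZNF525 late in BEAS-2B were small, 1.3-fold and 1.34-fold. ZNF551 was not called as a fall there (adjusted p = 0.191, limma). ZNF341 was at least 2.85-fold lower in BEAS-2B and at least 2.86-fold lower in HCT116.

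Of the 5 members with the brightest probes, ZNF486 rose in both lines, with average effects of 0.58 ± 0.08 in BEAS-2B (adjusted p = 9.89e-06, limma) and 0.50 ± 0.08 in HCT116 (adjusted p = 5.91e-05). ZNF674 had -0.01 ± 0.07 in BEAS-2B (adjusted p = 0.942) and rose by 0.24 ± 0.07 in HCT116 (adjusted p = 0.00793). ZNF428 had -0.19 ± 0.06 in BEAS-2B (adjusted p = 0.00816), a fall, and 0.03 ± 0.06 in HCT116 (adjusted p = 0.763). Of the members just inside the detection threshold, ZNF821 had 0.28 ± 0.20 and -0.09 ± 0.20, and ZNF765 -0.35 ± 0.16 and -0.19 ± 0.16, and none of these passed the test.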
